A study of Mus musculus with 8 samples.

Results

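The genes of amino acid catabolism and of the methionine cycle were compared between wild-type livers and livers in which *Rbfox2* was deleted in hepatocytes. The set holds 39 genes, chosen by symbol as enzymes of 8 pathways, out of 46078 gene identifiers in the deposited counts. All 39 passed the filter on low counts, as did 13856 identifiers in all. Poly(A)-enriched RNA was sequenced from 8 livers, 4 labelled wild-type (WT) and 4 labelled *Rbfox2* knockout (KO). Both genotypes carried *Rbfox2* LoxP/LoxP alleles. The WT mice lacked the *Alb_cre* transgene and the KO mice carried it, so recombination was directed to hepatocytes by the albumin promoter. Recombination in the other cells of the liver was not measured here. All mice ate the control (chow) diet, which the labels give as 12 weeks and the methods as 16 to 22 weeks from 8 weeks of age. The livers were taken after 16 h of fasting, and the methods name male mice unless stated otherwise. Each library is 1 liver, and the tests measure the spread between these livers.

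The liver breaks down most of the amino acids that are not used for protein synthesis, and in fasting their carbon skeletons feed glucose and ketone body production. Each pathway here is a chain of enzymes, some in the cytosol and some in mitochondria, and several of them are known to follow glucocorticoids, glucagon and protein intake. The methionine cycle makes *S*-adenosylmethionine, the methyl donor of the cell, and passes its homocysteine either back to methionine or on to cysteine and taurine.

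*Rbfox2* itself was counted 653, 518, 549 and 794 times in WT livers 1 to 4 and 202, 390, 77 and 103 times in KO livers 1 to 4, so the genotypes did not overlap. Scaled to library size, it was at 10.4 to 18.3 CPM in WT and 2.24 to 6.09 CPM in KO livers, and KO liver 2 was the highest KO liver. An exact permutation test of the CPM, two-sided, gave *P* = 0.0286, and 4 against 4 livers can give no smaller one. Total counts per liver were 37482458 to 56177588, and 3 counts corresponded to 0.0468 to 0.0929 CPM (counts scaled to the size of the library), a floor that covers counting error only. The least counted member, *Sdsl*, had at least 356 counts in every liver. The major urinary protein genes took 21.4% to 43.6% of the counts, and the TMM scaling factors ran from 0.724 to 1.14, with KO livers 3 and 4 lowest. Of 5 hepatocyte markers 4 matched the table and they summed to 40303 to 66554 CPM, whereas *Cpa1* and *Prss2* of the exocrine pancreas were at 0 in every liver. The 4 globin genes, markers of red cells in pairs of near-identical copies, summed to 338 to 681 CPM in WT and 589 to 1480 CPM in KO livers, and each had an unadjusted edgeR *P* between 0.0071 and 0.0157.

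None of the members was called different between the genotypes. At a Benjamini–Hochberg adjusted *P* of at most 0.05, edgeR's quasi-likelihood test called 0 of the 39 members and 0% of all genes tested, and limma-voom also called 0 members. DESeq2 called 0 members and 0.0722% of all genes. At an unadjusted *P* under 0.05, edgeR gave 1 member with a higher estimate in KO livers, *Cth*, where 7.95% of all genes had one, and 1 with a lower estimate, *Prodh*, where 1.83% of all genes had one, together 2 of 39 members against 9.79% of all genes. The same 2 members passed that threshold with DESeq2 (11.3% of all genes), and *Afmid* joined them with limma-voom (7.07%). With upper-quartile scaling only *Prodh* passed (8.42%), and with gene length and GC content corrected together none did (7.66%). No member had 4 livers of one genotype wholly above or below the other 4, against 2.28% of all genes (1.05% higher and 1.23% lower in KO livers). Of the 39 estimates, 22 were positive and 17 negative, with a median log2 fold change (KO over WT) of 0.03 and a range of −0.65 to 0.64. The median over all genes tested was −0.02. Fewer hepatocytes and less RNA per hepatocyte cannot be told apart in whole liver.

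The intervals show how large a difference these livers could have hidden. The 95% limma-voom interval lay within a 2-fold difference in either direction for 32 of the 39 members (82.1%), against 58.7% of all genes tested and 71.4% of the 4894 genes that were expressed at least as highly as the lowest member. It lay within 1.5-fold for 19 members (48.7%), against 19.5% of all genes and 32% of those expressed at least as highly as the lowest member. The members whose interval reached beyond 2-fold were *Gstz1*, *Sds*, *Gcsh*, *Prodh*, *Gnmt*, *Bhmt* and *Cth*. Over the members, the standard errors were 0.15 to 0.45 on the log2 scale. Exons of other genes overlap 11 members, *Afmid* and *Aldh4a1* on the same strand and *Aldh6a1*, *Bckdha*, *Bhmt*, *Csad*, *Gstz1*, *Mut*, *Pcca*, *Sds* and *Shmt1* on the other, so the origin of some of their reads is uncertain.

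**Figure D1:**
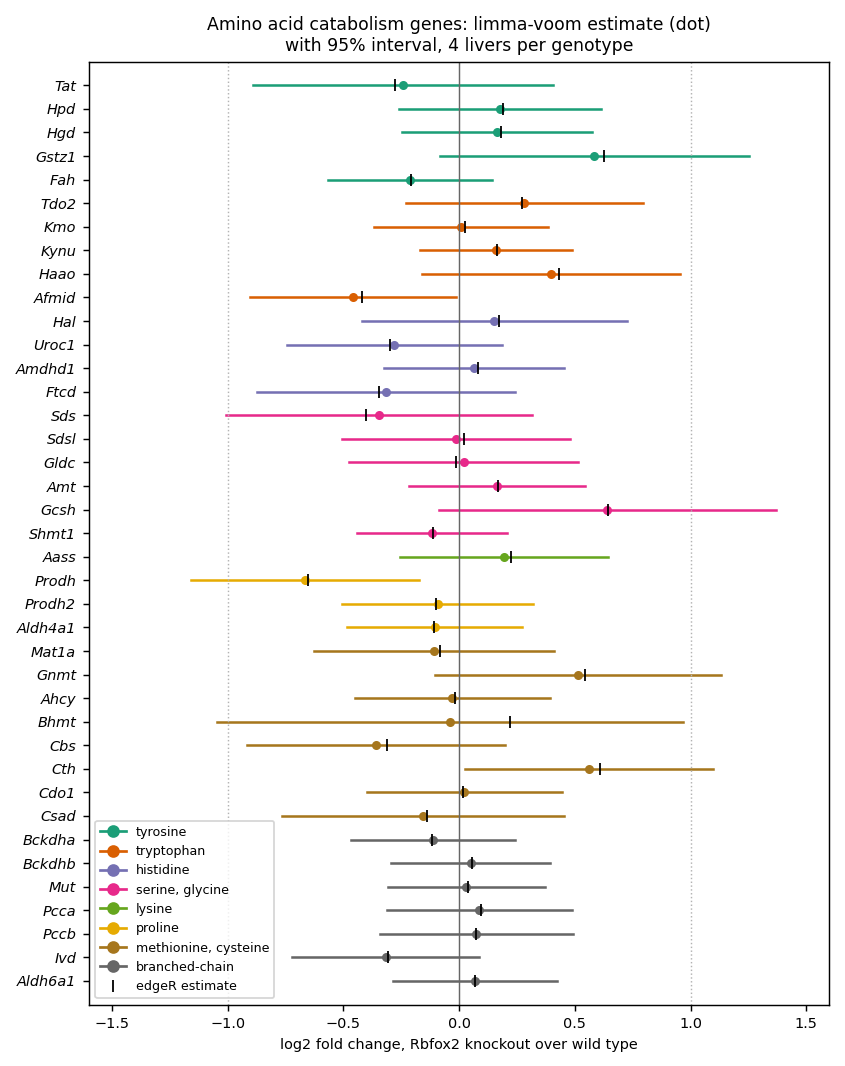
Log2 fold change of each of the 39 members, KO over WT, as the limma-voom estimate (dot) with its 95% interval (line) and the edgeR estimate (black tick), coloured by pathway, 4 livers per genotype. Dotted lines mark a 2-fold difference; the intervals of *Prodh*, *Afmid* and *Cth* do not reach 0, and that of *Bhmt* is the widest.

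Sequence from the 250 bases before a RefSeq start is shown for 4 of the members with the largest estimates, 3 positive and 1 negative. The *Prodh* stretch lies inside the gene as GENCODE annotates it, and 102 of the 250 bases of its window were in *Prodh* exons. The sequences are RefSeq's on GRCm38.p6 and stop where an exon of the GENCODE annotation begins. They are written 5′ to 3′ on the strand of the gene, with matches to the motifs described afterwards in capitals.
*Gstz1* (chr12:87146915-87147164, plus strand): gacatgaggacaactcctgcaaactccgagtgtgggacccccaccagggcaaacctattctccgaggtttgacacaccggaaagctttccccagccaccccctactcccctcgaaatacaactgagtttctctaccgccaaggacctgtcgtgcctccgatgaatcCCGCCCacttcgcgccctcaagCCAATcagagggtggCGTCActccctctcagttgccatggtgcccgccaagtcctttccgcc
*Gcsh* (chr8:116993538-116993748, minus strand): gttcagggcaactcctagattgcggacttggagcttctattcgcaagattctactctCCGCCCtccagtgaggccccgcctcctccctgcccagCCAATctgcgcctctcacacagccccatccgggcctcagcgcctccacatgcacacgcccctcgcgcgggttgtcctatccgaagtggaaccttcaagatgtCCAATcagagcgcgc
*Gnmt* (chr17:46729169-46729415, minus strand): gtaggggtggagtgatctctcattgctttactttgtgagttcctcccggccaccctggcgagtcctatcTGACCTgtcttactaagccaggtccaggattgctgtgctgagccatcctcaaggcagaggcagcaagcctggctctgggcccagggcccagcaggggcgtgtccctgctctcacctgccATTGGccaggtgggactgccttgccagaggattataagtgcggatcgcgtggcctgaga
*Prodh* (chr16:18089293-18089440, minus strand): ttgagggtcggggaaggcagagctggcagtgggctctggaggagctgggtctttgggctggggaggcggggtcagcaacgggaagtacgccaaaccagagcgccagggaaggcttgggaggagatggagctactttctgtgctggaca

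On both strands of the 250 bases before each annotated start, 6 short motifs were searched. They were the box named after its letters CCAAT, the GC box with the letters GGGCGG, the TATA box with the letters TATAAA, the nuclear receptor half-site with the letters AGGTCA, the cAMP response element half-site with the letters TGACG, and the element of C/EBP and ATF dimers with the letters TGATGNAA. None of the 6 contains another. RefSeq windows were found for 32 of the 39 members, 37 windows in all, and for 32851 windows over all genes. *Cth* had no such window, so its sequence is not shown. A second *Gstz1* window (chr12:87157353-87157602), within the gene, also held CCAAT and is not shown. CCAAT was in 67.6% of the member windows, against 33.8% of all windows and 35.2% of those of the genes tested, and 22 of the 32 members had it. AGGTCA was in 35.1% of the member windows, in 13 members, against 14% of all windows and 11.4% of those of the genes tested. GGGCGG was in 40.5% of member windows, TATAAA in 10.8%, TGACG in 16.2% and TGATGNAA in 0%, against 55.1%, 7%, 25.8% and 2.15% for the genes tested. *Gstz1*, *Gcsh* and *Gnmt* each had CCAAT on one strand or the other. The *Prodh* window, which lies within the gene as GENCODE annotates it, had none of the 6. A match is a run of letters and not a measured binding site.

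Tyrosine degradation runs from *Tat*, the aminotransferase that opens it, through *Hpd*, *Hgd* and *Gstz1* to *Fah*, which releases fumarate and acetoacetate. Its 5 estimates were 3 positive and 2 negative, with a median of 0.18 that came to 0.011 with the gene length correction, and none had an unadjusted *P* under 0.05. *Gstz1* (ENSMUSG00000021033, GRCm38 chr12:87147165-87164723), the maleylacetoacetate isomerase, was at 365, 617, 462 and 372 CPM in WT livers 1 to 4 and at 559.8, 397, 898 and 944 CPM in KO livers 1 to 4. KO livers 3 and 4 were above every WT liver, whereas KO liver 2 was below WT livers 2 and 3. The log2 fold change was 0.62 with a 95% interval of −0.08 to 1.25 (unadjusted *P* = 0.0633, adjusted *P* = 0.511). *Tat*, which is known for its induction by glucocorticoids and fasting, was at 1200.1, 727, 1614 and 1673 CPM in WT and at 1429, 1112, 956 and 806 CPM in KO livers. WT liver 2 was the lowest of all 8 and the groups overlapped, with a log2 fold change of −0.28 and an interval of −0.89 to 0.41. *Hpd*, *Hgd* and *Fah* had log2 fold changes of 0.19, 0.18 and −0.21. *Hpd* averaged 1534 ± 183 CPM (SD, n = 4) in WT and 1750.1 ± 347 CPM in KO livers, and *Fah* 294 ± 22 and 255 ± 31.4 CPM.

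The kynurenine pathway takes tryptophan from *Tdo2*, its first and rate-limiting liver enzyme, through *Afmid*, *Kmo* and *Kynu* to *Haao*, which makes the precursor of quinolinate and NAD. Of its 5 estimates 4 were positive, and the median was 0.16, or −0.0067 with the GC content correction. *Haao* (ENSMUSG00000000673, chr17:83831156-83847963) was at 131, 196, 167 and 152 CPM in WT livers 1 to 4 and at 202, 131, 266 and 272 CPM in KO livers 1 to 4. KO liver 2 had nearly the lowest value of all and the other KO livers were above every WT liver. The log2 fold change was 0.43 (interval −0.16 to 0.95, unadjusted *P* = 0.108). *Afmid* (ENSMUSG00000017718, chr11:117825924-117839908), the formamidase, was at 37.1, 33.2, 32.0 and 32.2 CPM in WT and at 19.9, 26.3, 34.5 and 19.8 CPM in KO livers. Only KO liver 3 overlapped the WT range. Its log2 fold change of −0.42 had an edgeR unadjusted *P* of 0.0622 and a limma-voom *P* of 0.0453. *Tdo2* averaged 1694.5 ± 371 CPM in WT and 2047 ± 448 CPM in KO livers (log2 fold change 0.27), *Kmo* 181 ± 3.5 and 184 ± 34.9 CPM (0.03), and *Kynu* 131 ± 7.94 and 147 ± 13.2 CPM (0.16). The WT livers were much closer to each other than the KO livers for *Kmo*, the kynurenine 3-monooxygenase of the outer mitochondrial membrane.

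Histidine is degraded by *Hal*, *Uroc1*, *Amdhd1* and *Ftcd*, which act in that order and end in the transfer of a one-carbon unit to folate. The log2 fold changes were 0.17, −0.30, 0.08 and −0.35, so neighbouring steps had estimates of opposite sign. All 4 intervals included 0, and the smallest unadjusted edgeR *P* was 0.178. With the gene length correction *Amdhd1* came to −0.055, so the signs did not alternate there. *Uroc1*, the urocanase, was at 217, 138, 189.8 and 245 CPM in WT and at 185, 174, 144 and 139.5 CPM in KO livers. WT liver 2 was the lowest and the other 3 WT livers were above all KO livers. *Ftcd*, the bifunctional last enzyme, averaged 225 ± 70.4 CPM in WT and 177 ± 34.2 CPM in KO livers, and WT livers 1 and 4 carried the higher WT mean. *Hal* and *Amdhd1* lie 4.03 kb apart on chromosome 10. *Hal* ranged from 192 to 319.5 CPM in WT and from 197 to 405 CPM in KO livers, and *Amdhd1* from 111 to 130.4 and from 101 to 152 CPM, and for both KO liver 1 was the highest of the 8.

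The serine and glycine genes comprise the serine dehydratase *Sds*, its homologue *Sdsl*, the glycine cleavage enzymes *Gldc*, *Amt* and *Gcsh*, and the cytosolic hydroxymethyltransferase *Shmt1*. The estimates were 3 positive and 3 negative, with a median of 0.0037. *Gcsh* (ENSMUSG00000034424, chr8:116981810-116993537), which encodes the lipoyl carrier protein of the glycine cleavage system, was at 42.1, 85.4, 53.1 and 39.7 CPM in WT and at 82.2, 46.1, 96.1 and 120.0 CPM in KO livers. WT liver 2 sat with the KO livers and KO liver 2 with the WT livers. The log2 fold change of 0.64, the highest among the members, had an interval of −0.09 to 1.37 (unadjusted *P* = 0.0742). It came to 0.36 with the gene length correction and to 0.30 with length and GC content corrected together. Its partners in the complex had smaller estimates, −0.02 for the decarboxylase *Gldc* and 0.17 for the aminomethyltransferase *Amt*, and the ratio of *Gldc* to *Gcsh* per kilobase of exon ran from 0.259 to 0.834 over the livers without separating the genotypes. *Sds*, known for its induction by glucagon and by protein feeding, was at 154, 117, 145 and 295 CPM in WT and at 171, 129.8, 143 and 93.5 CPM in KO livers. The WT mean of 178 CPM rested largely on WT liver 4, and without that liver the estimate, −0.40 with all 8 livers, came to −0.04. *Shmt1* varied little, with 109 ± 3.95 CPM in WT and 101 ± 9.63 CPM in KO livers, and so gave the narrowest interval of the set.

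*Aass*, which begins lysine degradation in mitochondria, was at 297, 291, 343 and 334 CPM in WT and at 362, 471, 389 and 257 CPM in KO livers. KO livers 1, 2 and 3 were above every WT liver and KO liver 4 was the lowest of the 8 (log2 fold change 0.23, interval −0.26 to 0.64).

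Proline degradation gave the lowest estimate of the set. *Prodh* (ENSMUSG00000003526, chr16:18060357-18090203) encodes proline dehydrogenase of the inner mitochondrial membrane, the first step of the pathway. It was at 92.9, 62.7, 81.7 and 100.4 CPM in WT livers 1 to 4 and at 42.4, 68.7, 60.6 and 43.3 CPM in KO livers 1 to 4. Only WT liver 2 and KO liver 2 crossed, the former lying below the latter. The means were 84.4 ± 16.4 CPM in WT and 53.8 ± 13 CPM in KO livers, and the log2 fold change was −0.65 with an interval of −1.16 to −0.17. The unadjusted *P* was 0.0138 and the adjusted *P* from edgeR 0.504. *Prodh2*, which oxidizes hydroxyproline, and *Aldh4a1*, which acts after both of them, had log2 fold changes of −0.10 and −0.11, with overlapping livers and intervals of −0.50 to 0.32 and −0.48 to 0.27. With the correction for GC content these last 2 estimates turned to 0.09 and 0.02. The ratio of *Prodh* to *Prodh2* per kilobase of exon was 0.204 to 0.308 in WT and 0.135 to 0.251 in KO livers.

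**Figure D2:**
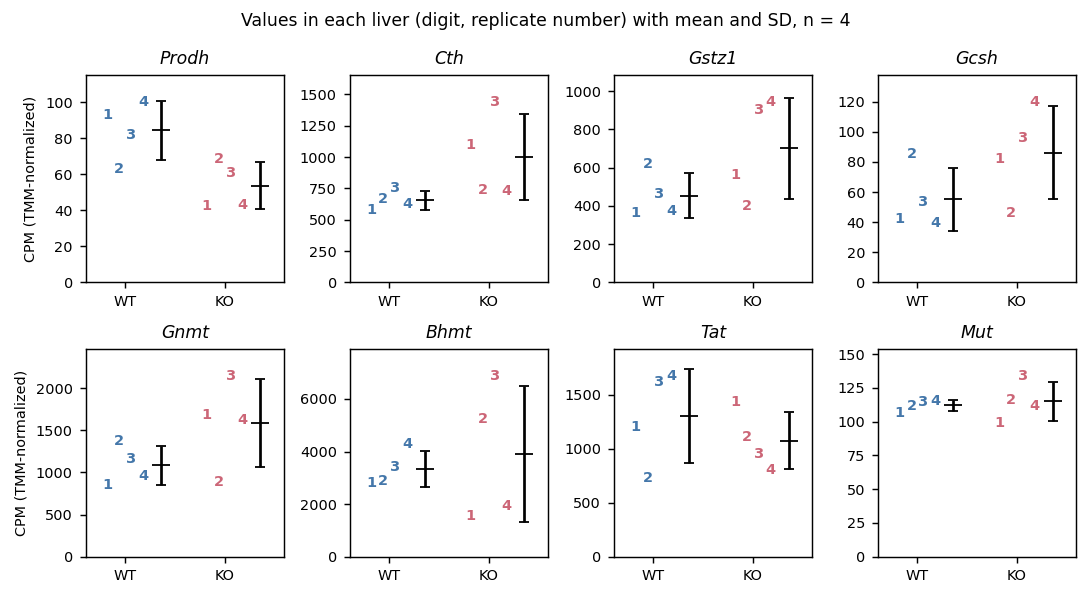
TMM-normalized CPM of 8 members in each liver, with digits giving the replicate number (blue, WT; red, KO) and black bars the mean ± SD of 4 livers; every axis starts at 0. All 4 KO livers lie below WT livers 1, 3 and 4 for *Prodh*, KO livers 1 and 3 lead *Cth*, and *Bhmt* splits the KO livers into 2 above and 2 below all WT livers, whereas *Mut* varies little.

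The methionine cycle and transsulfuration genes included the most highly expressed of the set. Per kilobase of exon, *Mat1a*, the liver *S*-adenosylmethionine synthetase, was at 1261 CPM over the 8 livers, followed by *Gnmt* at 1106, *Ahcy* at 797, the tyrosine enzyme *Hpd* at 772, *Cdo1* at 687 and *Bhmt* at 629. At the other end were *Afmid*, *Pcca*, *Sdsl* and *Prodh* at 8.31 to 8.86 CPM per kilobase. *Mat1a* was at 3675 to 5408 CPM in WT and 2929 to 5235 CPM in KO livers (log2 fold change −0.08), and it exceeded *Mat2a*, the form of dividing and extrahepatic cells, 79.9-fold to 165-fold per kilobase. *Ahcy*, which hydrolyses *S*-adenosylhomocysteine, was at 2248 ± 213 CPM in WT and 2223 ± 440.5 CPM in KO livers (log2 fold change −0.02, interval −0.45 to 0.39).

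*Gnmt* (ENSMUSG00000002769, chr17:46725664-46729168), which uses glycine to remove excess *S*-adenosylmethionine, was at 857, 1377, 1155 and 953 CPM in WT and at 1678, 888, 2144 and 1622 CPM in KO livers. KO livers 1, 3 and 4 were above all WT livers and KO liver 2 was below 3 of them. The log2 fold change was 0.54 (interval −0.11 to 1.13, unadjusted *P* = 0.0756). It came to 0.19 with the gene length correction and 0.29 with length and GC content corrected together. Without KO liver 3 it was 0.33. With 1 surrogate variable (a factor of variation estimated from all genes) in the fit it was 0.11. That fit also moved *Rbfox2*, the targeted gene, from −1.82 to −1.37. The part of the genotype difference that this factor takes up was not tested. *Cth* (ENSMUSG00000028179, chr3:157894248-157925077), the cystathionine gamma-lyase that releases cysteine, was at 578, 666, 754 and 623 CPM in WT and at 1094, 734, 1443 and 731 CPM in KO livers. KO livers 1 and 3 stood apart and KO livers 2 and 4 were below WT liver 3. The means were 655 ± 75.3 and 1000.4 ± 341 CPM and the log2 fold change was 0.61 with an interval of 0.03 to 1.10 (unadjusted *P* = 0.0314, adjusted *P* = 0.504). Without KO liver 3 it was 0.35 (unadjusted *P* = 0.136).

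The step before *Cth* had an estimate of the other sign. *Cbs*, the cystathionine beta-synthase, was at 295, 217, 308 and 309 CPM in WT and at 315, 249, 144 and 200.1 CPM in KO livers (log2 fold change −0.31, interval −0.92 to 0.20). KO liver 3, the highest of all for *Cth*, was the lowest of all for *Cbs*. It was also the lowest for *Csad*, the decarboxylase of taurine synthesis, at 134 CPM against 166 to 289.9 CPM in the others. *Cdo1*, the dioxygenase that commits cysteine to taurine and sulfate, was at 1124 ± 179 CPM in WT and 1136 ± 170.2 CPM in KO livers.

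*Bhmt* (ENSMUSG00000074768, chr13:93616675-93637961) remethylates homocysteine with betaine and had the widest spread of the set. It was at 2824, 2866, 3411 and 4270.2 CPM in WT livers 1 to 4 and at 1543, 5243, 6876 and 1923 CPM in KO livers 1 to 4. KO livers 2 and 3 were above every WT liver, KO livers 1 and 4 below every WT liver. The coefficient of variation was 66.5% in KO and 20.2% in WT livers, and the highest KO liver had 4.46 times the lowest. The log2 fold change was 0.22 by edgeR and −0.04 by limma-voom, with an interval of −1.05 to 0.97. Its neighbour 17.8 kb away, *Bhmt2*, which uses *S*-methylmethionine, was also higher in KO livers 2 and 3 than in KO livers 1 and 4. It was at 107, 150.2, 176 and 102 CPM in KO livers 1 to 4 and at 127 to 141 CPM in WT livers. That split of the KO livers was not particular to these neighbours. Members on other chromosomes had it too, among them *Mat1a*, *Hpd* and *Mut*, whereas others such as *Gnmt* did not.

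The 7 members of branched-chain amino acid and propionate degradation had narrow intervals. All 7 had intervals within 2-fold and 6 of them within 1.5-fold. Of the 16 other genes tested for this pathway, 11 had intervals within 2-fold and 6 within 1.5-fold. The median log2 fold change of the 7 members was 0.06. That median was −0.11 with the length and GC content corrections together, −0.12 with 1 surrogate variable and −0.061 without KO liver 3. *Bckdha* and *Bckdhb* encode the E1 subunits of the branched-chain ketoacid dehydrogenase, at 139 ± 15.7 and 128 ± 13.1 CPM for the former and 46.3 ± 2.59 and 48.1 ± 6.56 CPM for the latter in WT and KO livers. *Pcca* and *Pccb*, the subunits of propionyl-CoA carboxylase, kept a ratio per kilobase of 0.195 to 0.228 over all 8 livers, whatever the genotype. *Mut*, the methylmalonyl-CoA mutase that ends the propionate route, was at 112 ± 4.08 CPM in WT and 115 ± 14.5 CPM in KO livers (log2 fold change 0.04, interval −0.31 to 0.37). *Aldh6a1*, of valine degradation, had a log2 fold change of 0.07. The exception in size was *Ivd*, the isovaleryl-CoA dehydrogenase of leucine degradation, at 126, 95.9, 117 and 127 CPM in WT and at 98.2, 106, 100.2 and 71.6 CPM in KO livers. Its log2 fold change was −0.31 with an interval of −0.72 to 0.09, and WT liver 2 was the only WT liver within the KO range.

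**Figure D3:**
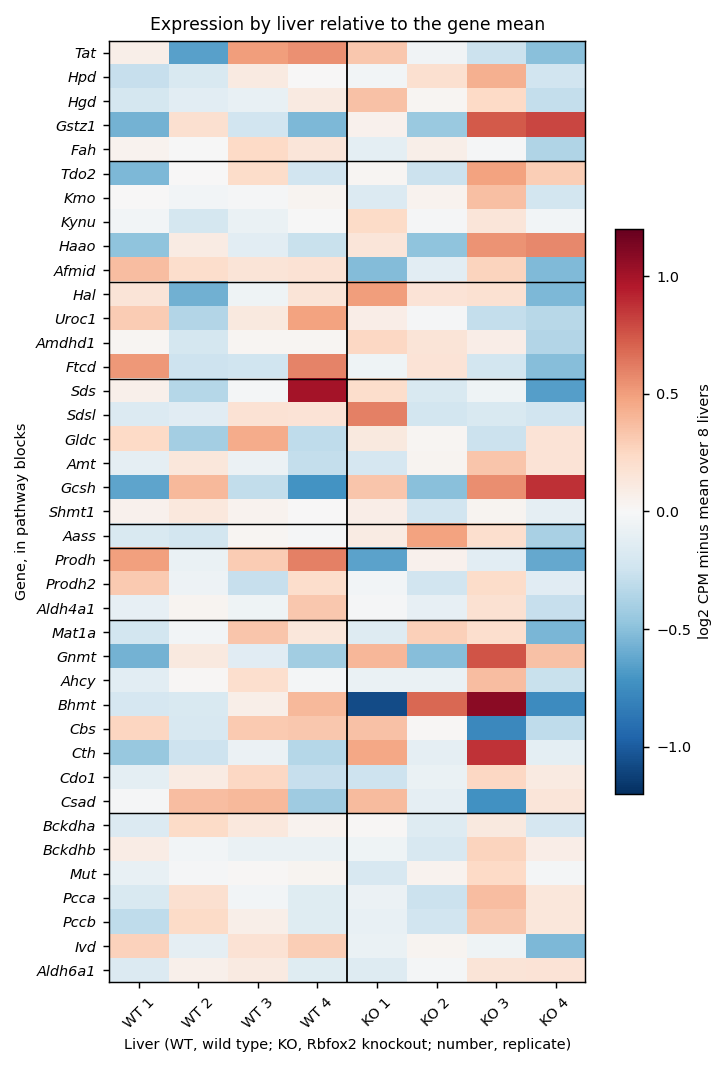
Log2 CPM of each member in each liver minus the gene's mean over 8 livers (red above, blue below), in blocks by pathway, with WT livers left of the vertical line and KO livers right of it. No block of several genes has 1 colour on either side; *Bhmt* runs from the darkest blue in KO liver 1 to the darkest red in KO liver 3.

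Single livers were the highest or lowest for many members at once. KO liver 3 was the highest of the 8 for 12 members and KO liver 4 the lowest for 14, whereas over all genes tested KO liver 3 was the highest for 13.1% and KO liver 4 the lowest for 14.3%. The summed TMM-scaled CPM of the members was lowest in KO liver 4 at 19714 and highest in KO liver 3 at 30963. As a share of the unscaled counts, the members were also lowest in KO liver 4, at 1.53%. By that measure they were highest in KO liver 2, at 2.82%, and at 2.24% in KO liver 3. WT liver 4 was the highest for 7 members, against 15% of all genes, and WT liver 1 the lowest for 8, against 16%. KO liver 4, the highest for 23.7% of all genes, was so for 4 members. The order of the livers for *Gstz1* was exactly that of the principal axis of all genes tested, which held 54.1% of the variance: KO 4, KO 3, WT 2, KO 1, WT 3, KO 2, WT 4 and WT 1. For *Gcsh*, 27 of the 28 liver pairs were in axis order, and for *Haao* 26. These were the 3 members with at least 25 pairs in axis order (7.69%), and none had 3 or fewer, against 13.8% and 8.83% of all genes. The median member had 13 of 28 pairs in axis order, and the median over all genes tested was also 13. The axis was computed from the same livers and genes, so these are descriptions. The 3 highest livers for summed globin counts, KO 4, KO 3 and KO 1, were also among the 4 highest for *Gstz1*, *Gcsh* and *Haao*, and the part of red cell RNA in these estimates was not tested. The surrogate variable moved *Rbfox2* itself from −1.82 to −1.37. With 1 surrogate variable in the fit, the log2 fold changes were 0.084 for *Gstz1*, 0.070 for *Gcsh* and 0.015 for *Haao*. With upper-quartile or DESeq2 size factors, or scaled without the *Mup* genes, they stayed at 0.57 to 0.62, 0.58 to 0.64 and 0.38 to 0.43.

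**Figure D4:**
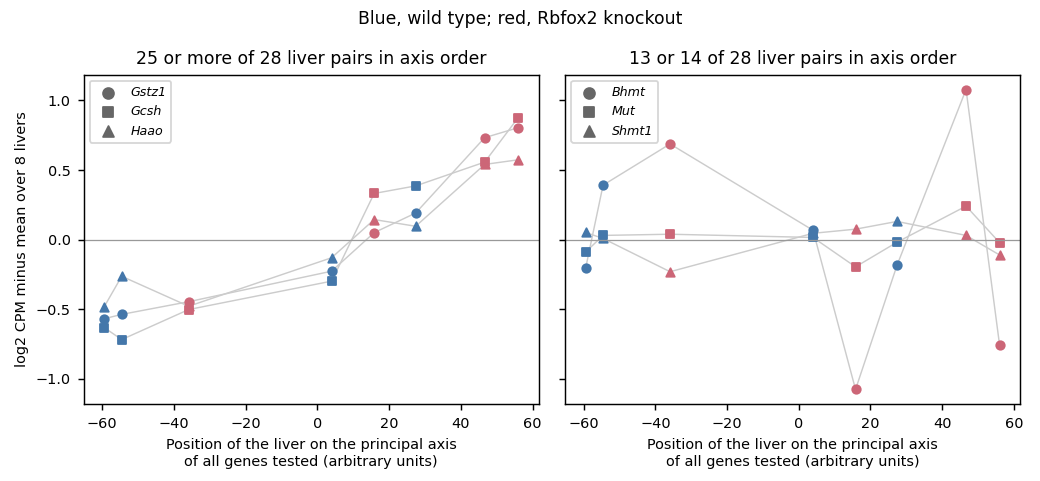
Log2 CPM of 6 members in each liver minus the gene's mean (vertical) against the position of the liver on the principal axis of all genes tested (horizontal, arbitrary units); blue, WT; red, KO. *Gstz1*, *Gcsh* and *Haao* climb along the axis in both genotypes, whereas *Bhmt*, *Mut* and *Shmt1* do not.

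Leaving out 1 liver changed which members had an unadjusted *P* under 0.05, but called none of them. Without KO liver 2, 5 members had higher estimates at that threshold, namely *Gcsh* (0.85), *Gstz1* (0.82), *Gnmt* (0.74), *Cth* (0.73) and *Haao* (0.61), and *Prodh* (−0.79) a lower one. That is 6 of 39, against 24.8% of all genes in the same fit, and the smallest adjusted *P* among the members, that of *Prodh*, was 0.0907. Without WT liver 2, *Gcsh*, *Gstz1* and *Gnmt* had higher estimates and *Prodh* and *Uroc1* lower ones, against 17.9% of all genes. Without KO liver 3, the only KO liver within the WT range for it, *Afmid* was at −0.64 (unadjusted *P* = 0.0069, adjusted *P* = 0.897), where 3.87% of all genes passed. *Prodh* kept an unadjusted *P* under 0.05 with each liver left out, while *Cth* lost it without WT liver 1, 2 or 4 or KO liver 1 or 3.

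Over all genes the estimates differed between short and long genes, and over the members they did so less. Genes with less exon sequence than the median member had a median log2 fold change of 0.18 (5790 genes) and longer genes one of −0.12 (8014 genes). The 19 shorter and 19 longer members had medians of 0.02 and 0.04. With length and GC content corrected together, *Prodh* was at −0.37 (unadjusted *P* = 0.0662) and *Cth* at 0.37 (unadjusted *P* = 0.131). By compartment, the 15 mitochondrial members had a median of 0.04 and the 24 others one of 0.02.

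None of the other genes of these pathways was called either. Of 62 listed, 60 could be tested, *Tdh* and *Bcat1* being at 1 count or fewer in every liver, and their median log2 fold change was 0.03. There were 5 with a higher and 1 with a lower estimate at an unadjusted *P* under 0.05, against 7.95% and 1.83% of all genes, and 0 were called by edgeR. Partners of the members had small estimates: *Mat2a* had a log2 fold change of −0.02, *Bhmt2* 0.02, the E2 subunit *Dbt* 0.11 and the aminotransferase *Bcat2* −0.10. A separate list held 10 regulators, and the smallest edgeR *P* values were taken over both lists. In the higher direction they were those of *Gch1*, the first enzyme of tetrahydrobiopterin synthesis (0.46, unadjusted *P* = 0.0313), and *Mat2b*, a regulatory subunit of the *Mat2a* enzyme (0.59, unadjusted *P* = 0.0373). In the lower direction they were those of *Ido2*, a second tryptophan dioxygenase (−0.66, unadjusted *P* = 0.0098), and *Cebpb*. The latter, one of the regulators, is a transcription factor of fasting and glucagon response (−0.64, unadjusted *P* = 0.0114). Each of these 4 had an adjusted *P* of 0.504 by edgeR. The 4 genes listed for tetrahydrobiopterin all had positive estimates (3 or 4 over the alternatives), with a median of 0.51. Over all genes tested, 6709 of 13856 estimates were positive. Apart from *Gch1* the unadjusted *P* was under 0.05 for *Gchfr*, its feedback regulator, which is named here after its values were seen (0.79, unadjusted *P* = 0.0489, adjusted *P* = 0.504 by edgeR). The median exon length of the 4 genes was 1302.5 bases, and all genes shorter than the median member had a median estimate of 0.18. *Gchfr*, with 645 bases of exon, was highest in KO livers 4 and 3, which also led the principal axis. The part of gene length and of that axis in these estimates was not tested. Of the 10 regulators listed, 9 had negative estimates (6 to 10 over the alternatives), with a median of −0.24, and only *Cebpb* had an unadjusted *P* under 0.05. Over all genes tested, 7146 of 13856 estimates were negative. The median exon length of the regulators was 4461 bases, and all genes longer than the median member had a median estimate of −0.12.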

How the data were processed

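One poly(A) RNA library per liver was sequenced as 100 base paired-end reads. The authors' alignment used TopHat2 (version 2.0.11 in the submitters' processing notes) and GRCm38, and featureCounts gave the counts per gene. The deposited values are whole, unnormalized counts. Strand and multi-mapping settings of the counting are not given in the sources used here, and exons of 11 members overlap other genes. Each column was matched to its liver by the label, with 0 columns left over.

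Symbols, positions and exon lengths came from GENCODE M21 on GRCm38 (45229 of 46078 identifiers matched). Genes passing filterByExpr (minimum count 10, minimum total 15) were scaled by TMM and compared by genotype with edgeR 4.0.16 (glmQLFit, glmQLFTest) in R 4.3.3, with Benjamini–Hochberg adjustment over all 13856 tested. Standard errors and 95% intervals came from limma-voom (limma 3.58.1), and log2 CPM used a prior count of 2. Alternatives were DESeq2 1.42.0, upper-quartile scaling, other filters, robust estimation, scaling without the *Mup* genes, lowess corrections (span 0.3) for length and GC content, 1 surrogate variable (sva 3.50.0), the replicate number as a block, and each liver left out. Leaving out WT liver 4 and KO liver 2 together was added after seeing the data.

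The members and gene lists were chosen with earlier results of these data known. All 39 members are named, with *Rbfox2*, the partners *Mat2a*, *Bhmt2*, *Dbt* and *Bcat2*, and, from the other pathway genes and regulators, the 2 of smallest unadjusted *P* in each direction. A further listed gene is not reported here. Promoters came from RefSeq (GRCm38.p6). Figures used Python 3.11.15 and matplotlib 3.10.9. No library was a copy of another (smallest chi-square per degree of freedom within a genotype, 97.8).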

Additional observations from a re-analysis of the deposited data

Results flagged for a closer look

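Values that stood apart from the other 3 of their genotype were looked for in 96 groups of 4 livers with Dixon's test at the 95% level, where chance would mark about 1 in 20, or 4.8. There were 5 such values, 3 of them in members. *Amdhd1* was at 111 CPM in WT liver 2, with the other WT livers all at 130. *Cbs* was at 217 CPM in WT liver 2, with the other WT livers at 295 to 309. *Sdsl* was at 19.7 CPM in KO liver 1, with the other KO livers at 11 to 11.4. Outside the members, *Bhmt2* was at 141 CPM in WT liver 4 (others 127 to 130) and *Mat2a* at 50.7 CPM in WT liver 1 (others 42.4 to 43.1). None of these genes had an unadjusted edgeR *P* under 0.05 for genotype.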

How the results depend on the processing

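No member was called under any alternative. Over all genes, DESeq2 called 10 and the other alternatives 0, and *Rbfox2* passed the adjusted threshold with DESeq2 (log2 fold change −1.825, adjusted *P* = 0.00023) but with no other alternative. Its log2 fold change ran from −2.09 to −1.64 with 1 liver left out and was −1.37 with 1 surrogate variable. The count of members with a higher estimate at an unadjusted *P* under 0.05, 1 as reported, was 0 with upper-quartile factors, the GC content correction, both corrections, 1 surrogate variable, the replicate block, and the block with both corrections, 5 without WT liver 4 and KO liver 2 (12.2% of all genes), and 0 to 5 with 1 liver left out (1.97% to 16.7% of all genes), the 5 being without KO liver 2 (16.7%). That with a lower estimate, 1 as reported, was 2 by limma-voom (1.59% of all genes) and with the length correction (2.9%), 0 with both corrections, the replicate block, and the block with both corrections, and 1 to 2 with 1 liver left out (0.853% to 8.08%). The members whose genotypes did not overlap, 0 as reported, were 1 with the length correction (*Bckdha*; 2.71% of all genes), 4 without WT liver 4 and KO liver 2 (20.8%), and 0 to 4 with 1 liver left out (2.91% to 18.9%), the 4 being without KO liver 2 (18.9%). The median log2 fold change of the members was −0.06 to 0.08 with 1 liver left out. Replicate numbers are shared between the groups by label only: the deviations of same-numbered livers correlated at 0.13, −0.61, 0.12 and −0.51, and the replicate block left *Prodh* at −0.66 (unadjusted *P* = 0.0522).

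Of the members, 18 kept the sign of their estimate under every alternative and 21 did not, and the cause was not tested. The log2 fold changes of changed sign, the 4 partners included, follow. With 1 surrogate variable they were *Tat* 0.0084, *Tdo2* −0.029, *Ftcd* 0.056, *Gldc* 0.026, *Cdo1* −0.14, *Bckdhb* −0.024, *Pcca* −0.12, *Pccb* −0.16, *Aldh6a1* −0.045, *Dbt* −0.046 and *Bcat2* 0.086. With upper-quartile factors they were *Kmo* −0.0085, *Sdsl* −0.020, *Cdo1* −0.029, *Mut* −0.00067 and *Bhmt2* −0.011. Without a filter on low counts they were *Kmo* −0.0049, *Sdsl* −0.015, *Cdo1* −0.021 and *Bhmt2* −0.0088. With the GC content correction they were *Kmo* −0.071, *Kynu* −0.0067, *Prodh2* 0.093, *Aldh4a1* 0.021, *Ahcy* 0.021, *Cdo1* −0.015, *Bckdha* 0.023, *Mut* −0.11, *Aldh6a1* −0.069, *Bhmt2* −0.0074, *Dbt* −0.032 and *Bcat2* 0.0042. With both corrections they were *Kmo* −0.0057, *Amdhd1* −0.097, *Sdsl* −0.11, *Gldc* 0.12, *Aldh4a1* 0.10, *Cdo1* −0.28, *Bckdhb* −0.26, *Mut* −0.11, *Pccb* −1.9e-05, *Bhmt2* −0.15, *Dbt* −0.073 and *Bcat2* 0.0099. With the replicate block and both corrections they were *Kmo* −0.028, *Amdhd1* −0.12, *Sdsl* −0.14, *Gldc* 0.15, *Aldh4a1* 0.086, *Bhmt* −0.00065, *Cdo1* −0.29, *Bckdhb* −0.25, *Mut* −0.12, *Pccb* −0.0030, *Bhmt2* −0.19, *Dbt* −0.088 and *Bcat2* 0.029. Scaled without the *Mup* genes they were *Kmo* −0.00092, *Sdsl* −0.0065, *Cdo1* −0.019 and *Bhmt2* −0.0059. With the length correction they were *Amdhd1* −0.055, *Sdsl* −0.26, *Gldc* 0.081, *Cdo1* −0.24, *Bckdhb* −0.20, *Pccb* −0.023, *Mat2a* 0.014 and *Bhmt2* −0.11. By limma-voom they were *Sdsl* −0.014, *Gldc* 0.020, *Bhmt* −0.040 and *Bhmt2* −0.019. With the replicate block they were *Sdsl* −0.019, *Gldc* 0.022, *Bhmt* −0.034 and *Bhmt2* −0.018. Without WT liver 4 and KO liver 2 they were *Prodh2* 0.0045, *Aldh4a1* 0.0075, *Cdo1* −0.039 and *Bhmt2* −0.012. With 1 liver left out, the ranges that crossed 0 were *Ahcy* −0.19 to 0.068, *Bcat2* −0.23 to 0.028, *Bckdhb* −0.061 to 0.12, *Bhmt* −0.22 to 0.49, *Bhmt2* −0.17 to 0.13, *Cdo1* −0.100 to 0.11, *Csad* −0.30 to 0.0022, *Dbt* −0.084 to 0.18, *Gldc* −0.13 to 0.16, *Kmo* −0.13 to 0.10, *Mat1a* −0.20 to 0.061, *Mat2a* −0.082 to 0.054, *Mut* −0.069 to 0.11, *Pcca* −0.054 to 0.19, *Pccb* −0.061 to 0.17 and *Sdsl* −0.22 to 0.11.

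With 4 livers per genotype, the intervals of 7 members still included differences of more than 2-fold, and at the adjusted threshold edgeR called 0 genes, so that the targeted gene was not called either. Counts per gene join all transcripts, so splicing was not measured here.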
